A study of Mus musculus with 2 samples.

Results

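The small subunit of the cytoplasmic ribosome, the 40S subunit, is built from ribosomal RNA and a set of ribosomal proteins, and 28 genes that encode such proteins were taken by name from the RefSeq table of mouse genes, out of 21887 protein-coding genes on the chromosomes. All 28 names were found, other genes of the subunit are not analysed here. The choice went by name alone, but it was made with earlier results of these data known. The question was where peaks of the protein TOBF1 lay on and around these genes, on which side of each gene and how high they scored. It was also asked whether the peaks lay at the small nucleolar RNA (snoRNA) genes found inside some of these genes. TOBF1, listed by RefSeq as Bclaf3, was mapped by ChIP-Seq in R1/E mouse embryonic stem (ES) cells, which were kept in serum medium with LIF and carried TOBF1 tagged on a BAC, a bacterial artificial chromosome. Chromatin was crosslinked with formaldehyde and DSG. The ChIP library was made with an anti-GFP antibody, and the input library came from the same cells without an antibody. Both libraries share the tagged BAC, and no untagged cells were used here.

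A deposited list of 12181 peaks was analysed for the ChIP library, and no file of the input was used here. With 1 library per group there is no replicate error and no test over samples, so each share below is a description with an exact 95% interval that covers counting error only. Every peak has a score, the authors' own value, read as −log10 of a q-value, with a median of 9.97 and a range of 1.30 to 216 over the list. The read depth is unknown. No expression values were used here either, so binding of TOBF1 and signal that strongly transcribed genes give to any antibody cannot be told apart in what follows.

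The 40S subunit reads the messenger RNA. Its head and body enclose the channel that the message runs through, and its platform faces the outgoing side of that channel. The genes of these proteins are short and among the most strongly transcribed genes of dividing cells, ES cells included. Their messages mostly begin with a run of pyrimidines, the terminal oligopyrimidine (TOP) tract, through which mTOR signalling sets their translation. Several of the genes carry snoRNA genes in their introns, and a snoRNA cut out of such an intron guides the chemical modification of other RNAs, mostly ribosomal RNA.

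TOBF1 peaks lay at nearly as many of these genes as lacked one. A peak midpoint lay no more than 1 kb from a gene end at 13 of the 28 genes (46.4%, interval 27.5 to 66.1%), against 2.67% of all protein-coding genes. Counting peaks inside and up to 10 kb away, 18 had one (64.3%, interval 44.1 to 81.4%), against 21.6% of all protein-coding genes. Small-subunit genes are short, with a median length of 3107 bp and a range of 982 to 11774 bp. Among the 8797 protein-coding genes no longer than the longest of them, 3.0% had a peak at an end and 10.9% a peak inside or up to 10 kb away. When lower-scoring peaks than the median were dropped, 2 of the 28 genes had one at an end, against 0.932% of all protein-coding genes, and 8 had one inside or up to 10 kb away, against 12.9%. The remaining 10 genes, named further on, had no peak within 10 kb.

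Most of the peaks lay past the annotated end of the gene in the direction of transcription. The promoter table gives the strand of 24 of the 28 genes, so that their start side and their far end, the end opposite to the start, could be told apart; this split was chosen after the peak positions had been seen. In the 5 kb beyond the far end, 14 of these 24 genes had a peak (58.3%, interval 36.6 to 77.9%), and in the 5 kb before the start side 2 did (8.33%, interval 1.03 to 27.0%). Both genes with a peak before the start, Rpsa and Rps19, also had peaks beyond the far end. Without peaks below the median score, 6 of 24 had one beyond the far end, against 1.35% of all protein-coding genes with a strand. Among the 17492 protein-coding genes with a strand the shares were 3.42% beyond the far end and 3.32% before the start side, and among those no longer than the longest small-subunit gene they were 3.87% and 2.94%. Counted as peaks, 38 lay in the 5 kb beyond the far ends of small-subunit genes, 10 inside the genes and 2 in the 5 kb before them. Of the peaks on either side, 95% were thus beyond the far end, against 51.6% for all protein-coding genes with a strand and 59.6% for those no longer than the longest small-subunit gene. Neighbouring peaks were not merged for these percentages, and the 38 peaks came from 14 genes.

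**Figure D1:**
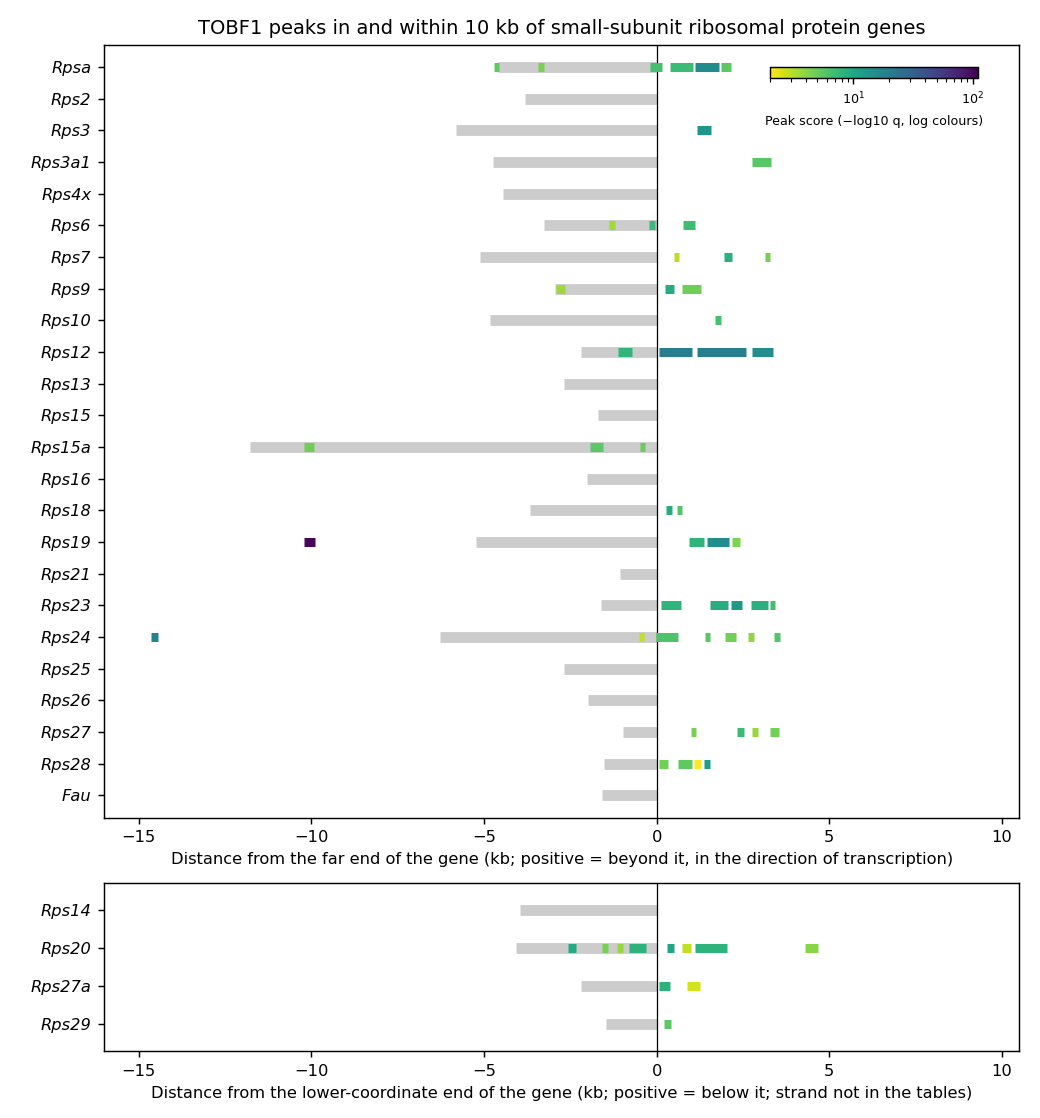
Position of every TOBF1 peak in or within 10 kb of the 28 genes, with each gene drawn to scale as a grey bar and each peak as a block as wide as the peak and coloured by its score (−log10 q, log colour scale). In the upper panel transcription runs to the right and 0 kb is the far end of the gene; 38 blocks have their midpoint to the right of that line, none more than 3486 bp from it, and 3 lie to the left of a gene. In the lower panel, for 4 genes whose strand is not in the tables, 0 kb is the lower-coordinate end and genome positions fall to the right.

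The peaks beyond the far end were all close to it. Their midpoints lay 197 to 3486 bp beyond it, with a median of 1629 bp, and none lay between 3486 bp and 10 kb. In 1 kb steps there were 11, 12, 9 and 6 peaks beyond the far ends of the 24 genes, which is 45.8, 50.0, 37.5 and 25 peaks per 100 genes, and then 0 in each further step up to 10 kb. In the same steps all protein-coding genes with a strand had 1.24, 1.06, 0.869 and 0.697 peaks per 100 genes, and 0.606 in the last. These counts include the small-subunit genes. A rise past the far end was thus present there too, at a lower level. It was not confined to that side. Going away from the start side, all protein-coding genes had 1.03 peaks per 100 genes in the first step and 0.566 in the last. Within 1 kb of the far end, on either side of it, 10 of the 24 small-subunit genes had a peak (41.7%, interval 22.1 to 63.4%), against 1.63% of all protein-coding genes. Without peaks below the median score it was 1 of 24, against 0.486%. Within 1 kb of an annotated start, 2 of 24 had one (8.33%), against 1.57% of all protein-coding genes, and these were Rpsa and Rps9, which also had a peak at the far end.

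**Figure D2:**
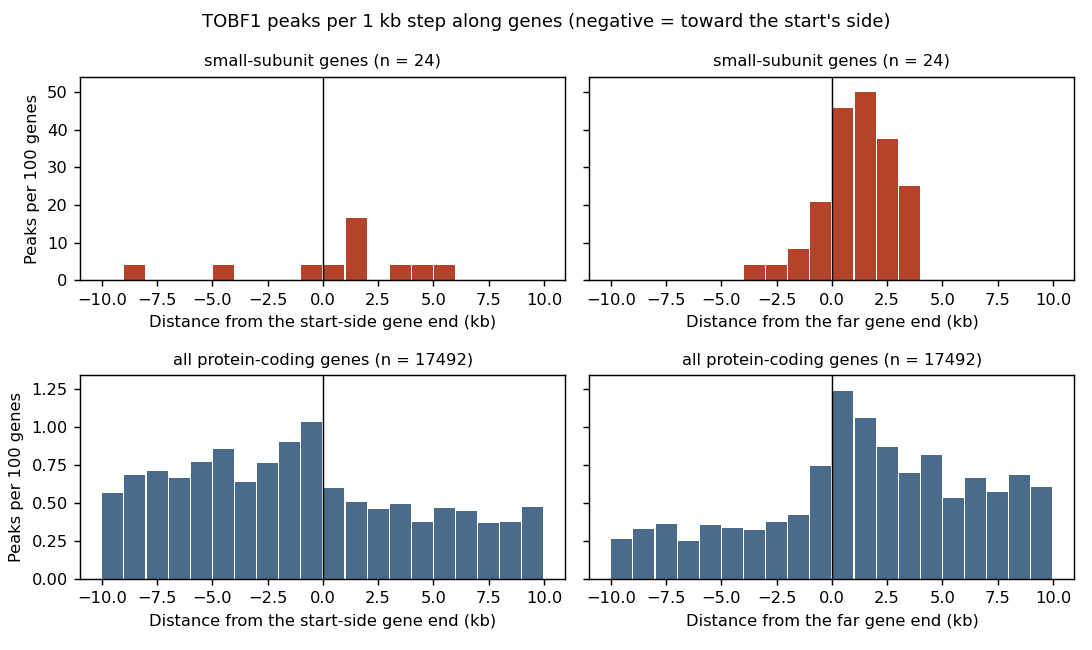
TOBF1 peaks per 100 genes in 1 kb steps from the start-side gene end (left) and from the far gene end (right), for the 24 small-subunit genes with a strand (top) and all 17492 protein-coding genes with a strand (bottom, on its own axis). Distances grow in the direction of transcription, and peaks past the other end of a gene are left out of each panel. The top right panel reaches 50.0 peaks per 100 genes between 1 and 2 kb beyond the far end and falls to 0 from 4 kb on.

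Peaks beyond the far end often came in strings. Of the 24 small-subunit genes 10 had at least 2 peaks in those 5 kb, against 0.715% of all protein-coding genes with a strand (125 of 17492). At least 4 peaks lay there at 4 small-subunit genes and at 27 genes in all, and 5 at 2 small-subunit genes and at least 5 at 15 genes in all. Neighbouring peaks were not merged for these counts, so a broad stretch that the peak caller broke up counts as several.

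Genes of the head of the subunit are given first. Rps12, whose protein in Drosophila takes part in cell competition, had the highest peaks beyond a far end. The gene lies on the minus strand at chr10:23785183-23787383 (mm10), and its 3 peaks there were 956, 1416 and 619 bp wide, centred 538, 1881 and 3073 bp beyond the far end, with scores of 20.1, 20.1 and 15.7. Together they covered 2991 of the 5000 bp, or 59.8%, the highest cover of the 24 genes. Another Rps12 peak (396 bp wide, score 7.99) lay inside the gene, 922 bp short of the far end. No peak lay within 1 kb of its annotated start or within 10 kb before it.

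Rps19, the gene most often mutated in human Diamond-Blackfan anaemia, had peaks on both sides that differed widely in score. The gene is on the plus strand at chr7:24884592-24889811. Beyond its far end there were 3 peaks at 1156, 1781 and 2297 bp, with scores of 8.12, 15.4 and 4.36, which covered 25.9% of the 5 kb. Before its start, 4838 bp away, lay a narrow peak of 312 bp (chr7:24879599-24879910) with a score of 103, which ranks 54 in the whole list. No other peak of the 28 genes scored above 20.1. The peak near the start side was in no annotated protein-coding or lncRNA gene.

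Rps28, which lies near the exit of the messenger channel, is a minus-strand gene of 1527 bp at chr17:33823036-33824562. It had 4 peaks beyond the far end, at 197, 832, 1179 and 1471 bp, with scores of 4.78, 5.40, 2.00 and 11.7. All 4 lay inside the neighbouring gene Kank3, which runs on the opposite strand and lies 115 bp from the far end of Rps28. Rps18, on the same chromosome at chr17:33951998-33955665, had peaks 358 and 677 bp beyond the far end with scores of 9.38 and 5.83. These also lie within 1 kb of an end of B3galt4, a glycosyltransferase gene on the same strand, 152 and 167 bp from it, so that neither gene can be named as the only owner of the peaks.

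Single peaks beyond the far end were found at Rps3 and Rps10. That of Rps3, which lines the entry of the messenger channel, was 1376 bp beyond the far end, 421 bp wide and scored 13.4. That of Rps10, a protein that is ubiquitinated when ribosomes collide, was 1787 bp beyond it, 163 bp wide and scored 6.51. Neither gene had another peak within 10 kb.

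The strand of Rps20, Rps27a and Rps29, also head proteins, is not in the tables, so their peaks are given by coordinate. Rps20 (chr4:3831584-3835655) had 8 peaks, the most of any of the 28 genes. Of these, 4 lay below the lower end, 406, 863, 1576 and 4474 bp from it, with scores of 10.2, 2.94, 8.20 and 4.10, and 4 lay inside the gene with scores of 8.33, 3.71, 4.60 and 9.82. Rps27a, which encodes ubiquitin fused to a ribosomal protein, had a peak 232 bp below the lower end (score 8.43) and another 1067 bp below it (score 2.62). These peaks are 158 and 677 bp from an end of Mtif2, a mitochondrial initiation factor gene. Rps29, a zinc-binding protein, had 1 peak, 313 bp below the lower end (score 5.46). None of these 3 genes had a peak above its upper end within 10 kb.

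Among the genes of the body and platform, Rps23 and Rps24 had the most peaks beyond the far end, with 5 each. Rps23 lines the site where codons are read, and its gene is at chr13:90923122-90924732 on the plus strand. Its peaks were 428, 1807, 2310, 2982 and 3349 bp beyond the far end, scored 8.10, 9.05, 12.6, 8.59 and 6.65, and covered 40.6% of the 5 kb. The Rps23 gene itself and the 10 kb before it held no peak.

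Rps24, another gene mutated in human Diamond-Blackfan anaemia, is at chr14:24490678-24496960 on the plus strand. Its peaks beyond the far end were at 304, 1476, 2137, 2725 and 3486 bp, with scores of 6.10, 5.65, 4.78, 3.88 and 5.87, and covered 27.9% of the 5 kb. A further peak lay inside, 429 bp short of the far end, with a score of 2.86. On the other side, 8254 bp before the start, a peak of 214 bp scored 18.5; it lay inside Polr3a, which encodes the largest subunit of RNA polymerase III.

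Rpsa, also known as the laminin receptor, had 6 peaks that ran from its start to past its far end. The gene is at chr9:120127766-120132369 on the plus strand. A peak of 135 bp with a score of 5.28 was centred 28 bp before the start, another with a score of 4.47 lay 1258 bp inside, and one more with a score of 6.49 was centred 27 bp short of the far end. Beyond it there were 3 more, at 720, 1464 and 2011 bp, with scores of 7.14, 16.3 and 5.46, covering 36.3% of the 5 kb. The peak at the far end and the 3 beyond it lay inside the lncRNA gene Gm5922, which overlaps the end of Rpsa.

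Rps9, a protein near the entry of the messenger channel, had a similar arrangement with fewer peaks. Its gene is at chr7:3703954-3706897 on the plus strand. A peak with a score of 3.59 lay 81 bp after the annotated start, and peaks with scores of 9.39 and 4.82 lay 377 and 1011 bp beyond the far end. At both Rpsa and Rps9 the peak at the start scored lower than the highest one beyond the far end, 16.3 at Rpsa and 9.39 at Rps9. The 3 peaks beyond the far end of Rpsa and the 2 beyond that of Rps9 were also wider than the peak at the start, with 1 exception at Rps9 (249 bp, against 272 bp at the start).

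The letters at these starts are shown because only they lie under a peak among the promoters of small-subunit genes in the table. Each promoter there runs from 250 bases before to 50 after the start (RefSeq, GRCm38.p6, whose chromosome positions are those of mm10). Printed are 100 bases before and 20 from the start on, in the sense direction, for Rpsa (chr9:120127666-120127785, plus strand) and Rps9 (chr7:3703941-3704060, plus strand), and for comparison for Rps12 (chr10:23787190-23787309, minus strand) and Rps23 (chr13:90923022-90923141, plus strand), which had 3 and 5 peaks beyond the far end and none here. Capitals mark the bases covered by a peak.
Rpsa: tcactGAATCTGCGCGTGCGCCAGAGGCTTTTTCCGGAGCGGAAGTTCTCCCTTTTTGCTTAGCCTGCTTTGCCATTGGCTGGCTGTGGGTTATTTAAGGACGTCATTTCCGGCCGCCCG
Rps9: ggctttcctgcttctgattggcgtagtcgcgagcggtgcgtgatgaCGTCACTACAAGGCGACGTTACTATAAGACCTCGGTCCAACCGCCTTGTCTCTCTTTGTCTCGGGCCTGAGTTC
Rps12: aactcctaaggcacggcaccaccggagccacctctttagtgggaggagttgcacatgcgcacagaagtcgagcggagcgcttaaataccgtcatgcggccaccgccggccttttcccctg
Rps23: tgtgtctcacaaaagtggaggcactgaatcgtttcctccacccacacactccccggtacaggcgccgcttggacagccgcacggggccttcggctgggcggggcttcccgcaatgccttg
The Rpsa peak covers the window from 95 bases before the start, and the Rps9 peak from 54 bases before it.

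Rps6, whose protein is phosphorylated by the S6 kinases downstream of mTOR, is a minus-strand gene at chr4:86854099-86857367. It had a peak 942 bp beyond the far end (score 7.07), another inside the gene 125 bp short of that end (score 7.11) and a weaker one 1297 bp short of it (score 3.56). Rps7, mutated in some cases of human Diamond-Blackfan anaemia, had peaks at 570, 2063 and 3215 bp beyond the far end with scores of 3.02, 8.55 and 4.65. Rps3a1 of the platform had 1 peak, 3027 bp beyond the far end, with a score of 5.65.

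Rps27, a zinc-binding protein and at 982 bp the shortest of the genes, had 4 peaks beyond the far end, at 1068, 2431, 2839 and 3413 bp, with scores of 4.52, 7.11, 3.73 and 4.71. All 4 lay inside Nup210l, whose end is 515 bp from that of Rps27. Rps15a, the longest gene with 11774 bp, differed from the others in having 3 peaks inside and none outside: they lay 399 and 1740 bp short of the far end and 1702 bp after the start, with scores of 4.96, 5.58 and 4.87.

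The distance of 1 kb that defines a peak at a gene end cut through these strings. Just inside it were the midpoints at Rps12 (922 bp) and Rps6 (942 bp), and just outside were those at Rps9 (1011 bp), Rps20 (1059 bp), Rps27a (1067 bp) and Rps27 (1068 bp). Rps3, Rps3a1, Rps10, Rps19 and Rps27 had peaks beyond the far end but none within 1 kb of either gene end.

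No peak within 10 kb was found at Rps2, Rps4x, Rps13, Rps14, Rps15, Rps16, Rps21, Rps25, Rps26 and Fau. Their nearest peaks were 13.6 kb away at Rps13, 44.8 kb at Rps14, 74.3 kb at Rps25, 81.9 kb at Fau, 86.0 kb at Rps26, 89.6 kb at Rps2, 123 kb at Rps16, 140.0 kb at Rps15, 256 kb at Rps21 and 464 kb at Rps4x. These proteins come from every region of the subunit: Rps15 and Rps16 reach toward the transfer RNAs from the head, Rps14 and Rps26 belong to the platform, Rps4x is the X-linked copy of its gene, and Fau encodes a ribosomal protein fused to a ubiquitin-like one. Of 12 head genes, 9 had a peak within 10 kb, and of 16 genes of the body and platform, 9 had one, against 21.6% of all protein-coding genes and 10.9% of those no longer than the longest small-subunit gene. With no test made, the 2 regions of the subunit are given as counts only.

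The gap to the next protein-coding gene beyond the far end overlapped between genes with and without peaks there. It had a median of 7175 bp in the 14 genes with a peak beyond the far end (range 115 to 960914 bp) and of 4373 bp in the 10 without one (range -248, an overlap, to 436743 bp). The next gene lay within 5 kb at 5 of the 14 and at 5 of the 10. Of the 38 peaks, 12 lay inside another protein-coding or lncRNA gene. With only the peaks inside protein-coding genes left out, 12 of the 14 genes still had a peak beyond the far end. The peaks of Rpsa inside the lncRNA gene Gm5922 were kept in that count.

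Peaks at the small-subunit genes were of modest score. The 38 peaks beyond far ends had a median score of 6.58 (quartiles 4.79 and 9.30), and the 688 peaks within 5 kb beyond the far ends of other protein-coding genes had a median of 7.43. The 23 peaks within 1 kb of an end of a small-subunit gene had a median of 6.49, against 7.15 for 629 peaks at ends of other protein-coding genes and 9.97 for the whole list. Of those 23 peaks, 2 reached the median of the list, which were the peaks of Rps12 and Rps20 with scores of 20.1 and 10.2. Of the 38 beyond far ends, 8 did so, at 6 genes. The 14 peaks inside the genes scored 2.86 to 9.82 with a median of 4.92, none of them at the median of the list. The 38 peaks were 135 to 1416 bp wide with a median of 279.5 bp, against 216 bp for the list.

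**Figure D3:**
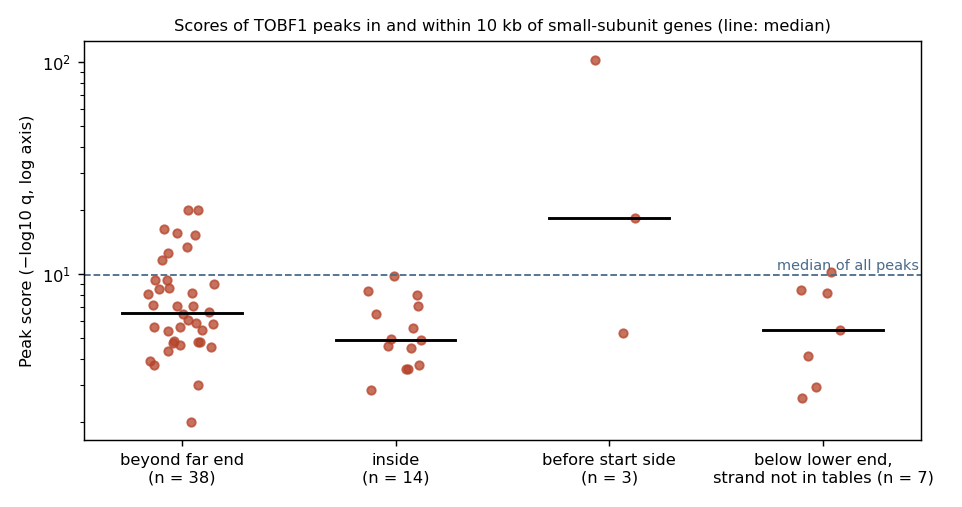
Scores (−log10 q, log axis) of the 62 TOBF1 peaks in or within 10 kb of the 28 genes by place, each point a peak and each black line a median, with the median of all 12181 peaks (9.97) as a dashed line. Medians are 6.58 beyond the far end, 4.92 inside and 5.46 below the lower end of genes without a strand in the tables. The highest point is the peak 4838 bp before Rps19.

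SnoRNA genes inside the small-subunit genes were mostly without a peak of their own. Of the 28 genes, 8 hold at least 1 annotated snoRNA gene: Rpsa, Rps2, Rps3, Rps3a1, Rps12, Rps13, Rps16 and Rps20. A snoRNA gene was counted when it lay within the annotated span of the gene, and introns were not assigned. A peak at a gene end was found in 3 of these 8 (37.5%, interval 8.52 to 75.5%) and in 10 of the 20 genes with no snoRNA gene (50.0%, interval 27.2 to 72.8%). Of all 372 protein-coding genes with a snoRNA gene inside, 9.68% had a peak at an end, and of all protein-coding genes 2.67% did. In the 5 kb beyond the far end, 4 of 7 host genes with a strand and 10 of 17 others had a peak. Among all protein-coding genes with a strand this share was 3.42%. The shares of small-subunit genes with and without snoRNA genes overlap in their intervals (18.4 to 90.1% and 32.9 to 81.6%).

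Of the 14 snoRNA genes, 4 had a peak midpoint within 500 bp (28.6%, interval 8.39 to 58.1%), against 2.99% of all 1340 annotated snoRNA genes. This count was 1 of 14 within 200 bp, and 0 of 14 when peaks below the median score were dropped. The share of all annotated snoRNA genes is not given at these settings, so these counts cannot be set against the 2.99%. The 4 snoRNA genes with a peak within 500 bp belong to 2 hosts and share 2 peaks. In Rpsa the inside peak (score 4.47) was 89 bp from the snoRNA gene LOC115485682 and 327 bp from Gm26448, and in Rps12 the inside peak (score 7.99) was 284 bp from Snord100 and 365 bp from LOC115487513. Snora33 of Rps12 was 654 bp from the same peak, Snora62 of Rpsa 1410 bp from that of its host, and the snoRNA gene of Rps20, LOC115490074, 1045 bp from the nearest peak. Snord15a and Snord15b of Rps3 and Snord73a of Rps3a1 were 3043 to 6265 bp from the peak beyond the far end of their host. Those of Rps2 (Snora64 and Snora78), Rps13 (Snord14a) and Rps16 (AF357399) lay in genes with no peak within 10 kb. Snora78 lies within the span of Rps2 but before its annotated start.

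The promoters of the small-subunit genes carried letters common to housekeeping promoters, and these were found at genes with peaks beyond the far end and at genes without. The table holds 28 windows of 300 bases for 24 of the genes, among 32851 windows in all. The letters CCGGAAG, bound by ETS factors, were found on either strand in 11 of the 28 windows (39.3%), against 8.86% of all windows. They were in 6 of the 17 windows of genes with a peak beyond the far end and in 5 of the 11 windows of genes without. GGGCGG, bound by SP and KLF factors, was in 16 windows (57.1% against 35.7%), in 8 of 17 and in 8 of 11. AAGATGG, part of the YY1 motif, was in 6 (21.4% against 6.34%), in 2 of 17 and in 4 of 11. A run of at least 8 pyrimidines within 20 bases of the start, on the sense strand, was in 11 windows (39.3% against 16%), in 7 of 17 and in 4 of 11.

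The other letters searched were in few windows, and counts this small cannot be told apart from the shares of all windows. TATAAA was in 2 windows (7.14% against 13.6%), CACGTG in 1 (3.57% against 7.15%) and ATGCAAAT, the octamer bound by POU factors such as Oct4, in 0, against 1.74% of all windows. Both strands were searched for each of these, matches of different motifs may share letters, and a match is no evidence of binding. GC content was 58.3% in the median of the 28 windows (range 44.3 to 75.3%), against 52.7% over all windows. Rps18 (chr17:33955646-33955765, minus strand), with peaks beyond the far end, and Rps21 (chr2:180257279-180257398, plus strand), with no peak within 10 kb, are shown as 2 promoters that share the ETS letters. Here capitals mark the motifs searched by their letters, on either strand, from 100 bases before the start.
Rps18: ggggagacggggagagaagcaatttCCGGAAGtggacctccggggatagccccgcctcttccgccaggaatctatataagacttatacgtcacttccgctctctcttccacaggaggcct
Rps21: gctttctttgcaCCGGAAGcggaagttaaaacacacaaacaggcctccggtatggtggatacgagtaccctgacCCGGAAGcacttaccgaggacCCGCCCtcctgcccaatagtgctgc

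Among other genes of the same pathway, those of the large ribosomal subunit had the same one-sided arrangement. In the 5 kb beyond the far end, 22 of 42 large-subunit genes with a strand had a peak (52.4%, interval 36.4 to 68.0%), and before the start side 0 of 42 did (interval 0 to 8.41%). At a gene end 19 of 55 had a peak (34.5%), with the highest scores at Rpl18 (8.96), Rpl4 (8.63) and Rpl27 (8.44), and within 10 kb 32 of 55 had one (58.2%). The intervals of the small and the large subunit overlap in each of these shares. The highest scores at an end were higher among small-subunit genes, where Rps12 (20.1), Rps20 (10.2), Rps9 (9.39) and Rps18 (9.38) exceeded that of Rpl18, and this difference was not tested.

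Genes of initiation factors, 40S assembly factors and mitochondrial small-subunit proteins had such peaks at lower shares. Beyond the far end, 4 of 23 genes of translation initiation factors had a peak (17.4%, interval 4.95 to 38.8%) and before the start side 0 of 23 did (interval 0 to 14.8%). Factors that assemble the 40S subunit had 4 of 42 beyond the far end (9.52%, interval 2.66 to 22.6%) and 1 of 42 before the start side. Proteins of the small subunit of the mitochondrial ribosome, a separate machine, had 3 of 28 (10.7%, interval 2.27 to 28.2%) and 1 of 28. The share of the small-subunit genes beyond the far end was 58.3% (interval 36.6 to 77.9%). Of all protein-coding genes with a strand, 3.42% had a peak beyond the far end and 3.32% before the start side. The measure was added after the peak positions were seen, and differences between the lists were not tested. At gene ends, where 2.67% of all protein-coding genes had a peak, initiation factors had 2 of 28 (7.14%). These were the helicase gene Eif4a2 (score 9.84) and the cap-binding gene Eif4e (4.05). Assembly factors had 3 of 54 (5.56%). They were Nop58 (score 13.7) and Nop56 (4.91), both core proteins of box C/D snoRNPs, and the acetyltransferase gene Nat10 (4.29). Mitochondrial genes had 1 of 33 (3.03%), close to the share of all protein-coding genes. It was Mrps18b (score 3.51).

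**Figure D4:**
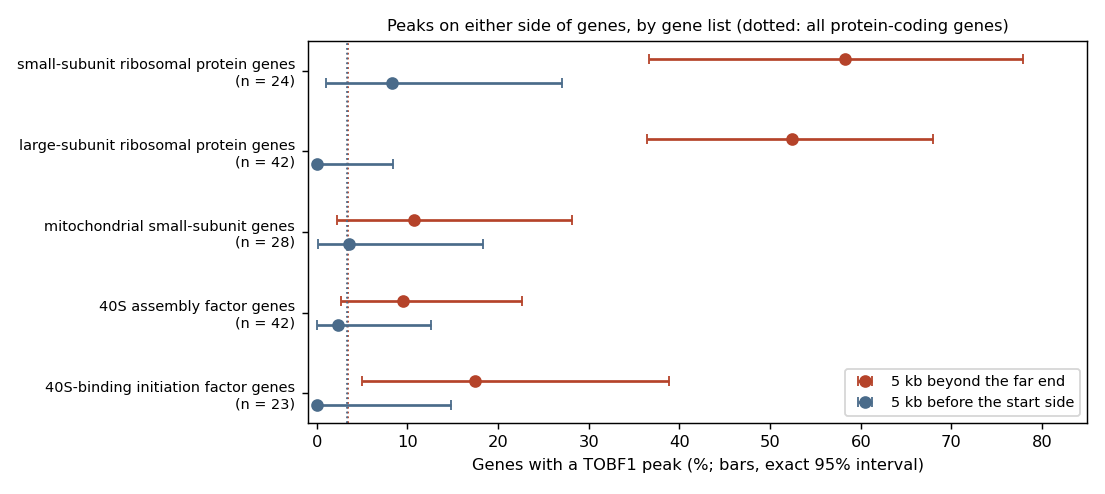
Share of genes with a TOBF1 peak in the 5 kb beyond the far end (red) and in the 5 kb before the start side (blue) for small-subunit ribosomal protein genes and 4 other lists, with exact 95% intervals and n the genes whose strand is known. Dotted lines give the shares of all protein-coding genes, 3.42% and 3.32%. Small-subunit (58.3%) and large-subunit genes (52.4%) stand to the right on the red measure only.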

How the data were processed

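The labels describe 1 ChIP library and 1 input library from the same tagged ES cells. Per the submitters' processing notes, the tools were MACS2, Bowtie2, cutadapt and bedtools, with mm10 as the build. Their versions and settings, and whether the input served as control, are not stated in those notes. The authors' peak list, called on 1 library, holds a score per peak. The deposited scores are taken as −log10 of q, since their minimum of 1.30 is where a usual q threshold falls. The 169 peaks on scaffolds were left out of counts around genes.

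Genes came from the RefSeq table of GRCm38.p6, strands and starts from its promoter table. A peak was placed by its midpoint, and the far end is the gene boundary opposite to the start. The members, lists, motifs and windows were chosen with earlier results of these data known, and the measures at and beyond the far end were added after the peak positions were seen. All members were to be named, with snoRNA genes inside them, genes sharing a peak at an end, and the 3 highest scores at an end of each other list. Polr3a and Gm5922 were named after their values were seen. Intervals at 95% are by the exact Clopper-Pearson method, for counting error alone. Alternatives changed the score threshold, windows, placing, merging and background. Placement was tested on simulated data. Software was pandas 2.3.3, SciPy 1.17.1, NumPy 2.4.6 and matplotlib 3.10.9 under Python 3.11.15.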

Additional observations from a re-analysis of the deposited data

How the results depend on the processing

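Counts that moved by more than 1.5 times under an alternative, and the scores and shares that moved, are given here. When peaks below the median score were dropped, 2 of 28 genes had a peak at an end, 8 within 10 kb, 0 of 24 at the start, 1 at the far end, 6 beyond it and 1 before the start side. The shares of all protein-coding genes at this setting were 0.932%, 12.9%, 0.555%, 0.486%, 1.35% and 1.68% in the same order. Within 500 bp, 0 of 14 snoRNA genes had one, and the share of all snoRNA genes at this setting is not given. A window of 5 kb gave 10 of 24 at the start and 5 of 8 snoRNA hosts at an end. At the start it takes in the far end of short genes, and also the peak before Rps19 and a peak inside Rps15a. A window of 2 kb left 1 gene with a peak before the start side, and 200 bp left 1 snoRNA gene. The matching shares of all genes and of all snoRNA genes are not given for these other windows. The median over genes of the highest score within 10 kb was 9.38, with 8.97 within 5 kb, 11.9 within 50 kb and 6.50 for the nearest peak. The share of genes with a peak at an end was 3.0% for genes up to the longest member's length and 9.68% for snoRNA hosts. Beyond the far end, 12 to 14 of 24 genes kept a peak with any overlap, merging, other windows or only peaks outside protein-coding genes. The 1 library, its unknown depth and the lack of an untagged control among the data used limit every value. No paired analysis was possible because each group has 1 library, and no replicate could be left out.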

Other observations

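At least 4 TOBF1 peaks in the 5 kb beyond the far end were found at 27 of the 17492 protein-coding genes with a strand. Of these, 4 were small-subunit genes (Rps23, Rps24, Rps27 and Rps28) and 4 large-subunit genes (Rpl13a, Rpl31, Rpl37a and Rpl27a). The other 19 included Eef1a1 with 6 peaks, the gene of a translation elongation factor, and Tpt1 with 4, both of whose messages carry a TOP tract, as well as the histone genes H2ac13 and H2bc8 with 5 each and H2ac22 and H4c8 with 4 each. Zfp42, a gene that marks ES cells, had 6, and Bclaf3, the gene of TOBF1 itself and so the one carried on the tagged BAC, had 5. The rest of the 19 were B3gnt7, Gm15319 and Mto1 with 6 peaks each, Snx5 and Tmem123 with 5 each, and Cflar, Gm3448, Rfc4, Trim28, Ube2m and Zfp57 with 4 each. These genes were named after their counts were seen, a peak near neighbouring genes was counted for each of them, and no test was made.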
